A study of Mus musculus with 34 samples.

Results

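Cd72, Il2ra, Gpr162, Adgrg5 and Dnase1l3 are 5 of the 24475 genes in a bulk RNA-seq table of mouse monocytes and macrophages. They were selected on their read counts in tumor monocytes, chosen by a large rise in MC38 over LLC tumors, so that contrast is given below as a description only, with no test. The questions asked of libraries that the choice did not use were whether tumor macrophages and cultured monocytes show the same difference between MC38 and LLC. MC38 is a colon carcinoma line and LLC is the Lewis lung carcinoma line, both from C57BL/6 mice, and all 34 libraries are labelled strain C57/Bl6. The 24 libraries from tumor-bearing mice form 6 groups of 4. TuMon1 are Ly6C+ CD88+ Sca1+ monocytes sorted from MC38 tumors, and TuMon2 are Ly6C+ CD88+ Sca1- monocytes sorted from LLC tumors. Both tumors also gave macrophages, whose sorting gate the labels do not state. Spleens of the tumor-bearing mice gave Ly6C+ monocytes. The 10 culture libraries are bone marrow monocytes: 4 untreated (Ly6C+), 3 given MC38 supernatant (labelled Ly6C+ CD88+ Sca1+) and 3 given LLC supernatant (labelled Ly6C+ CD88+ Sca1-). Tumor line and sorted subset therefore coincide, in tumor monocytes and in culture, and cannot be told apart. The labels do not say whether replicates are separate mice or cultures, or whether monocytes and macrophages came from the same tumors, so p-values cover the spread between these samples only.

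The genes are known from lymphocytes and other immune cells. CD72 is a lectin-like coreceptor of B cells that binds the semaphorin SEMA4D and dampens signaling through the phosphatase SHP-1, encoded by Ptpn6. Il2ra encodes CD25, the alpha chain that turns the beta and gamma chains (Il2rb, Il2rg) into the high-affinity receptor for interleukin 2, best known from regulatory and activated T cells. Gpr162 encodes an orphan G protein coupled receptor and Adgrg5 an adhesion G protein coupled receptor. Dnase1l3 encodes a secreted DNase that digests chromatin released by dying cells and is made by macrophages and dendritic cells. Sca1, the protein used in the sort, is encoded by Ly6a.

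The 5 genes lie on 5 chromosomes of GRCm38.p6 by RefSeq: Cd72 (Entrez 12517) at chr4:43447724-43455102 on the minus strand, Il2ra (16184) at chr2:11642792-11693194 on the plus strand, Gpr162 (14788) at chr6:124858444-124864195 on the minus strand, Adgrg5 (382045) at chr8:94921811-94943293 on the plus strand and Dnase1l3 (13421) at chr14:7965187-7994760 on the minus strand. RefSeq promoter sequences were matched for 3 of the 5, Cd72, Il2ra and Adgrg5. The 250 bases before each start are shown because one short motif sits close to the start in each of them. Capitals mark ACTTCCT, which is AGGAAGT, a core bound by ETS factors such as PU.1, read on the opposite strand. The windows are chr4:43454627-43454876 (minus strand) for Cd72, chr2:11642542-11642791 (plus strand) for Il2ra and chr8:94923444-94923693 (plus strand) for Adgrg5, each written 5′ to 3′ along the gene.
Cd72: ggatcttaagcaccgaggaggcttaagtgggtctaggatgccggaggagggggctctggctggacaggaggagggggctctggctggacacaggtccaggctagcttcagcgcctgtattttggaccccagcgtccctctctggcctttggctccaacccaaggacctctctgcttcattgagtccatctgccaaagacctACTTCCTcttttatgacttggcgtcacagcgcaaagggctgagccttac
Il2ra: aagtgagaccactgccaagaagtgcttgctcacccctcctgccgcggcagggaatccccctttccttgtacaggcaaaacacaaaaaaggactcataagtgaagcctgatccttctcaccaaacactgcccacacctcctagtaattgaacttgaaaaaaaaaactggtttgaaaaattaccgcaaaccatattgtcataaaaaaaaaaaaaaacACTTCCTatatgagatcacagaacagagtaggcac
Adgrg5: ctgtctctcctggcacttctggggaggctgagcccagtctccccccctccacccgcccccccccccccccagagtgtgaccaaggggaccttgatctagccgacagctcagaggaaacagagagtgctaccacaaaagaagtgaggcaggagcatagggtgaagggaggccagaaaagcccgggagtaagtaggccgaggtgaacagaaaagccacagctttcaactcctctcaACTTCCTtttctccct
The windows of Cd72 and Adgrg5 fall inside the genes' full annotated extents, because the table's start lies downstream of the outermost start.

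The motif lies 49 to 43 bases before the start in Cd72, 35 to 29 bases in Il2ra and 16 to 10 bases in Adgrg5. Searched on both strands, AGGAAGT was found in 7.69% of 32851 such windows (2525 windows). The motif was chosen after these sequences were seen, so its presence in 3 of 3 windows is a description and not a site. Other motifs, also searched on both strands, were in 0 of the 3 windows. The gamma-activated site, searched as TTCNNNGAA, was in 7.02% of all windows and the core of the interferon-stimulated element in 2.98%. The AP-1 site, searched as TGANTCA, was in 6.75% of windows. The TATA box, searched as TATAAA, was in 12.4%.

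Library totals ran from 13047772 to 26966644 estimated counts. In 5 libraries transcripts foreign to monocytes stood out: MC38 spleen monocyte replicates 1, 2 and 3 (the fat gene Car3 at 2430 to 4570 CPM, counts scaled to a common library size, against at most 43.6 in 29 other libraries), MC38 supernatant replicate 3 (the collagen gene Col1a1 at 1010 CPM against at most 5.25) and control culture replicate 2 (the muscle actin Actc1 at 72.5 CPM against at most 1). Results that change without these 5 libraries are therefore given both ways, with the others in ranges. Ly6a followed the sort, with a mean level of 1732 ± 50.3 CPM in Sca1+ and 36.4 ± 4.69 CPM in Sca1- tumor monocytes (SD, 4 libraries per group), and 1506 ± 147 CPM with MC38 supernatant against 11.5 ± 0.329 CPM with LLC supernatant (SD, n = 3 each). Its rise was not limited to the sorted monocytes, since MC38 macrophages had 819.9 ± 130 CPM and LLC macrophages 141 ± 41.9 CPM (SD, n = 4 each, edgeR adjusted p = 7.89e-04).

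Markers of lymphocytes were set beside the 5 genes, since Cd72 and Il2ra are best known from B and T cells. Macrophage libraries of MC38 tumors carried a summed 29.9 to 32.5 CPM of the B and plasma cell list, against 3.86 to 7.23 CPM in LLC macrophages. Nearly all of it was Cd79b, a chain of the B cell receptor complex, at 29.7 CPM against 3.79 CPM. Its partner Cd79a had 0.119 and 0.167 CPM, and the B lineage genes Pax5, Cr2 and Mzb1 had 0 counts in both macrophage groups. The T and NK cell list summed to 5.33 to 8.67 CPM in MC38 and 4.86 to 7.36 CPM in LLC macrophages, with Cd3e at 0.184 and 0.0496 CPM. Of 10 of its genes tested in macrophages, 4 were higher in MC38 (Nkg7, Prf1, Lck and Cd8a, each with a mean of 0.445 CPM or less) and 1 lower (Cd2), with a list median of 1.70 on the log2 scale. Over all genes tested in macrophages, 22.4% were higher in MC38 and 22.9% lower. In tumor monocytes the lists summed to 8.46 to 10.5 CPM (B) and 9.41 to 12.9 CPM (T and NK) in TuMon1, against 3.54 to 5.72 and 4.61 to 5.37 CPM in TuMon2. In spleen monocytes the B list summed to 32.7 to 43.2 CPM (MC38) and 58.6 to 110 CPM (LLC).

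**Figure D1:**
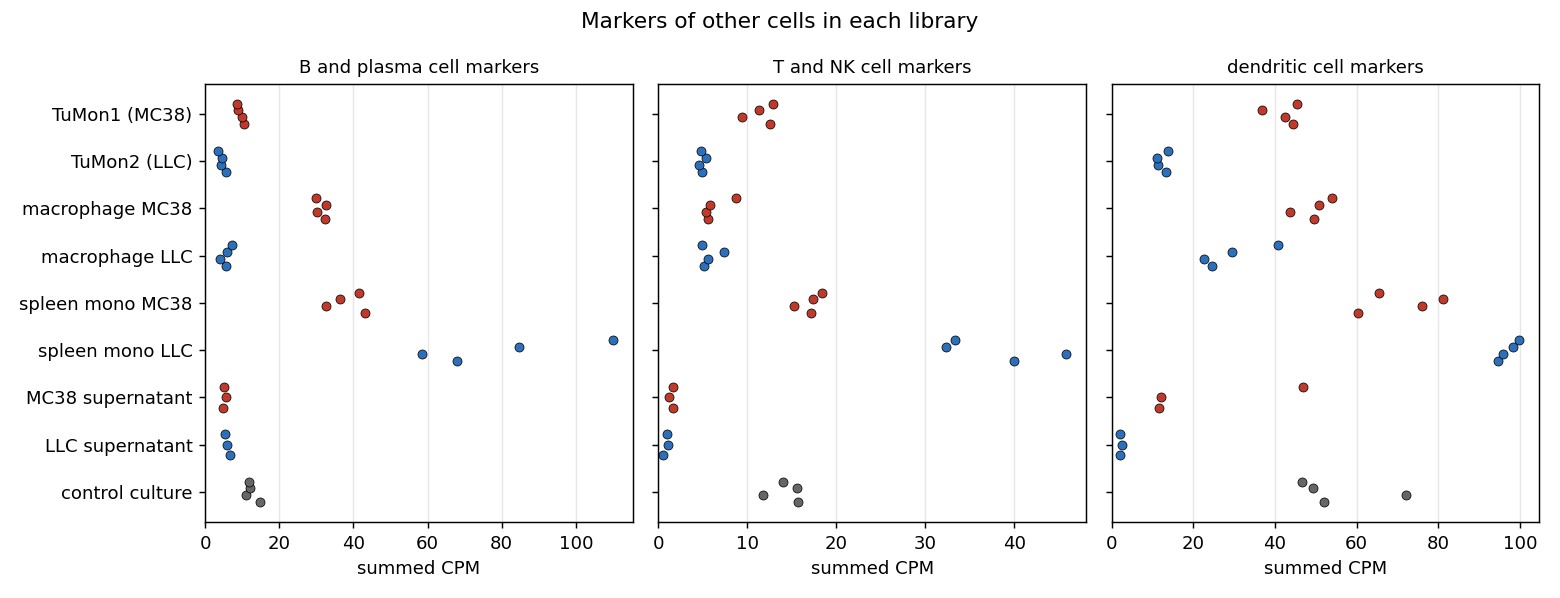
Summed CPM of markers of B and plasma cells, T and NK cells and dendritic cells (x axes) in each library, by group (rows). Red points are MC38, blue points LLC and gray points untreated cultures. The highest B cell sums are in LLC spleen monocytes (58.6 to 110 CPM), and MC38 macrophages (29.9 to 32.5 CPM) lie above LLC macrophages (3.86 to 7.23 CPM).

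Of 12 dendritic cell markers, 4 were higher and 4 lower in MC38 than in LLC macrophages, beside 22.4% and 22.9% of all genes tested. The sum of these markers was 43.7 to 54 CPM in MC38 and 22.5 to 40.7 CPM in LLC macrophages, and 36.8 to 45.5 CPM in TuMon1 against 11 to 13.7 CPM in TuMon2. In culture it was 11.6, 12.1 and 46.8 CPM with MC38 supernatant, the highest in replicate 3, and 1.96 to 2.48 CPM with LLC supernatant, against 46.5 to 72 CPM in untreated cultures. Untreated cultures also had higher sums of the T and NK list (11.8 to 15.7 CPM, against 0.565 to 1.69 CPM with supernatants) and of the B list (11.1 to 14.8 CPM, against 4.83 to 6.6 CPM). Only 2 of 14 T and NK genes and 2 of 9 B genes were tested in culture. The median log2 difference from untreated cells was -3.93 (MC38 supernatant) and -6.29 (LLC supernatant) for the T and NK genes. For the B genes it was 0.80 and 1.43, opposite to their sum. In spleen monocytes the dendritic sum was 60.3 to 81.1 CPM (MC38) and 94.6 to 99.8 CPM (LLC). The sum of monocyte and macrophage markers went the other way, at 5200 to 6120 CPM in MC38 and 14100 to 14700 CPM in LLC macrophages. Of these 8 markers, 2 were higher in MC38 macrophages (among them Adgre1, log2 1.07 ± 0.11 SE) and 6 lower, beside the same 22.4% and 22.9% of all genes tested. In culture the sum was 9340 to 10700 CPM with MC38 and 23400 to 24000 CPM with LLC supernatant. With MC38 supernatant, however, 3 markers were higher and 2 lower, beside 21.6% and 18.5% of all genes tested in culture. Lyz2 alone was at 3100 and 18500 CPM there, so such sums mostly follow the most abundant gene. The part of these markers in the results below was not tested. In bulk samples, fewer cells of a type and less RNA per cell cannot be told apart.

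In tumor monocytes, the contrast that chose the genes, TuMon1 libraries 1 to 4 had 813, 932, 747 and 673 CPM of Cd72, against 32.3, 24.2, 29.5 and 20.6 CPM in TuMon2. Il2ra had 20.9, 21.03, 18.9 and 14.7 CPM against 1.003, 0.609, 0.569 and 1.07 CPM. Gpr162 had 12.8, 14.4, 11.2 and 11.3 CPM against 0, 0.207, 0.378 and 0.286 CPM. Il2ra and Gpr162 were near or below 1 CPM in TuMon2 while Cd72 was well detected, and for all 3 no TuMon2 library reached a TuMon1 library. Adgrg5 had 50.2, 35.7, 47.7 and 49.97 CPM against 1.32, 1.03, 1.21 and 2.69 CPM. Dnase1l3 had 36.2, 32.6, 43.3 and 46.9 CPM against 2.38, 0.966, 2.04 and 1.77 CPM. The fitted log2 differences were 4.90 (Cd72), 4.52 (Il2ra), 5.74 (Gpr162), 4.85 (Adgrg5) and 4.52 (Dnase1l3), in a contrast in which 26.8% of 13200 genes passed the threshold in that direction and 27.9% had all TuMon1 libraries above all TuMon2 libraries.

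Cd72 was the most abundant of the 5 per length in MC38 macrophages. The level there was 425 ± 16.8 CPM per kilobase of exon for Cd72, 11.2 ± 2.92 for Dnase1l3, 6.16 ± 1.15 for Adgrg5, 2.59 ± 0.332 for Il2ra and 2.38 ± 0.116 for Gpr162 (SD, n = 4 each). In spleen monocytes the mean of Adgrg5 was above that of Cd72 per length. It was 4.28 ± 0.766 against 2.54 ± 2.86 CPM per kilobase in MC38 mice and 4.42 ± 0.884 against 2.31 ± 3.66 in LLC mice (SD, n = 4 each). The order was reversed in MC38 replicate 1 and LLC replicate 3.

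**Figure D2:**
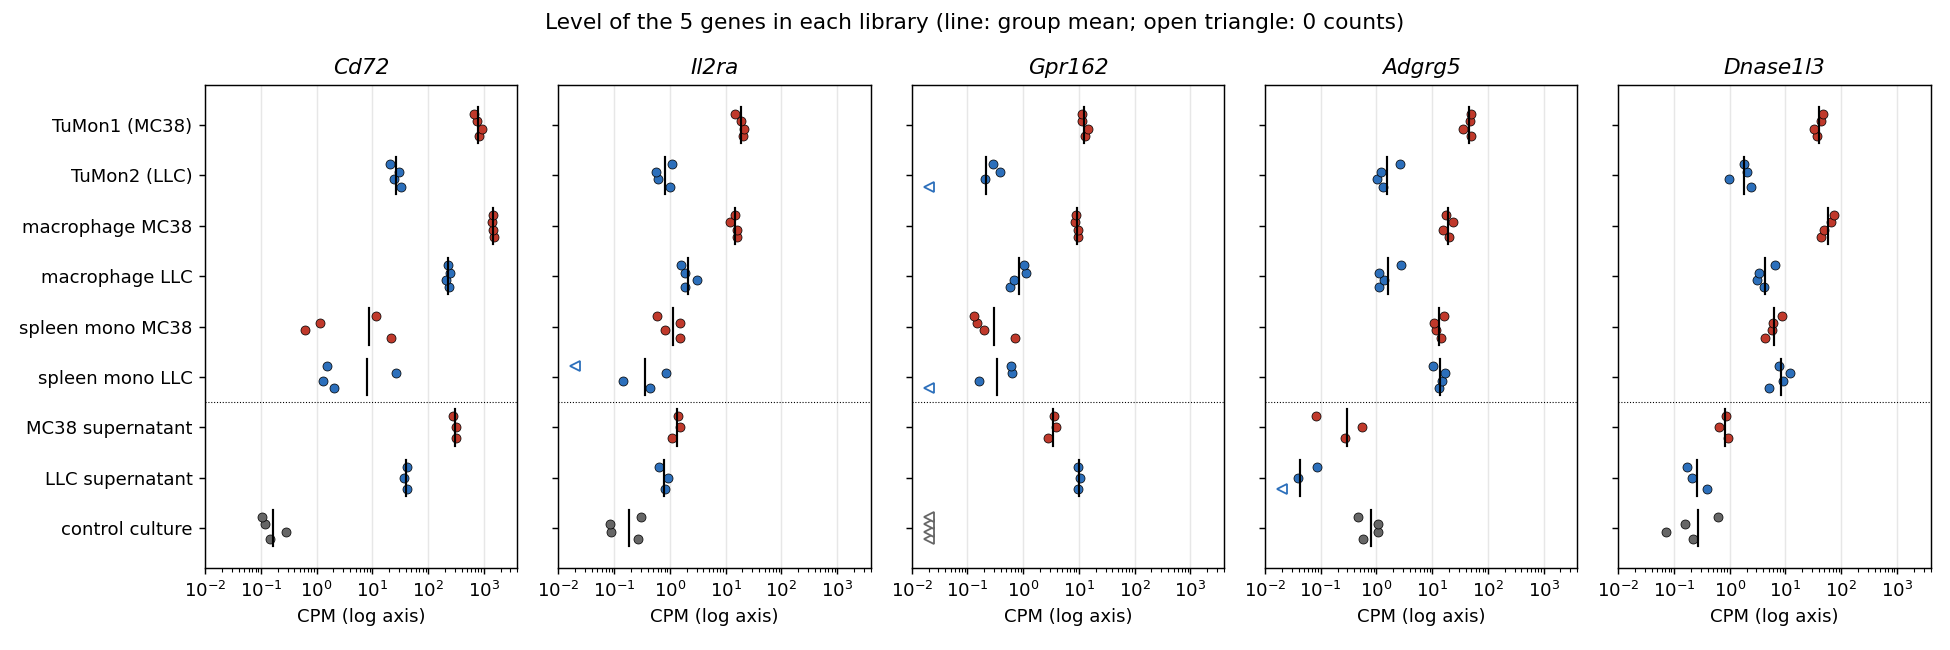
CPM of each gene (x axes, log scale) in each of the 34 libraries, by group (rows); vertical lines are group means, open triangles are libraries with 0 counts, and red, blue and gray are MC38, LLC and untreated. All 5 genes separate MC38 from LLC in tumor monocytes and macrophages, while below the dotted line, in culture, Cd72 is at 285 to 321 CPM with MC38 supernatant and 36.7 to 41.5 CPM with LLC supernatant and Gpr162 runs the other way.

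Tumor macrophages, which the choice of genes did not use, showed the same direction for each of the 5 genes. All 5 were higher in MC38 than in LLC macrophages (edgeR, Benjamini-Hochberg adjusted p under 0.05), where 22.4% of 13200 genes tested were higher and 45.3% differed in either direction, and their median log2 difference was 3.44 beside a median of 0 over all genes tested. The tumor-line pattern was also present in macrophages, whose sorting gate is not stated and in which Ly6a was itself higher in MC38. For Cd72 the level in MC38 macrophages was above that in every TuMon1 library. No library of one macrophage group reached the other group for any of the 5, against 22.4% of genes separated in that direction.

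Cd72, the coreceptor, had 1527, 1461, 1386 and 1447 CPM in MC38 macrophages and 241, 213, 250 and 223 CPM in LLC macrophages. Both groups were tight and far apart, although LLC macrophages still held much more Cd72 than TuMon2. The difference was 6.28-fold (log2 2.65 ± 0.81 SE, edgeR adjusted p = 0.0115). Its SE was large because the fit shares 1 dispersion over the 6 mouse groups: the SD of log2 CPM was 0.06 and 0.11 in the macrophage groups but 2.39 and 2 in the MC38 and LLC spleen groups.

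Il2ra, the alpha chain of the interleukin 2 receptor, had 16.1, 16.1, 12.1 and 14.9 CPM in MC38 and 1.84, 3.04, 1.84 and 1.56 CPM in LLC macrophages. Every MC38 library was above 12 CPM and every LLC library at or below 3.04 CPM. It was 7.14-fold higher (log2 2.83 ± 0.35 SE, edgeR adjusted p = 4.83e-07). Its signaling partners differed in level: Il2rg, the shared gamma chain, was abundant at 333 ± 13.7 against 180 ± 17.7 CPM, whereas Il2rb, the beta chain, was at 0.707 ± 0.446 against 0.223 ± 0.0773 CPM (SD, n = 4; Il2rb was picked after its values were seen).

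Of the receptors, Gpr162 had 9.51, 9.52, 8.60 and 8.98 CPM in MC38 and 0.584, 0.689, 1.13 and 1.03 CPM in LLC macrophages. The MC38 libraries lay within 1 CPM of each other, and all LLC libraries were near 1 CPM or below. It was 10.7-fold higher (log2 3.44 ± 0.43 SE, edgeR adjusted p = 4.95e-07). Adgrg5 had 19.9, 15.6, 24.1 and 17.8 CPM against 1.09, 1.38, 1.13 and 2.78 CPM, with LLC replicate 4 the highest of its group. The difference in Adgrg5 was 12.1-fold (log2 3.63 ± 0.27 SE, edgeR adjusted p = 2.51e-10).

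Dnase1l3, the secreted DNase, had 42.7, 48.2, 65.1 and 75.3 CPM in MC38 and 4.09, 3.12, 3.36 and 6.58 CPM in LLC macrophages. Its SD of log2 CPM within MC38 macrophages, 0.38, was the widest of the 5, and its difference was the largest of the 5, at 13.5-fold (log2 3.76 ± 0.29 SE, edgeR adjusted p = 9.33e-10). All 5 calls kept their direction and passed the threshold in each alternative that gave the gene an adjusted p.

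**Figure D3:**
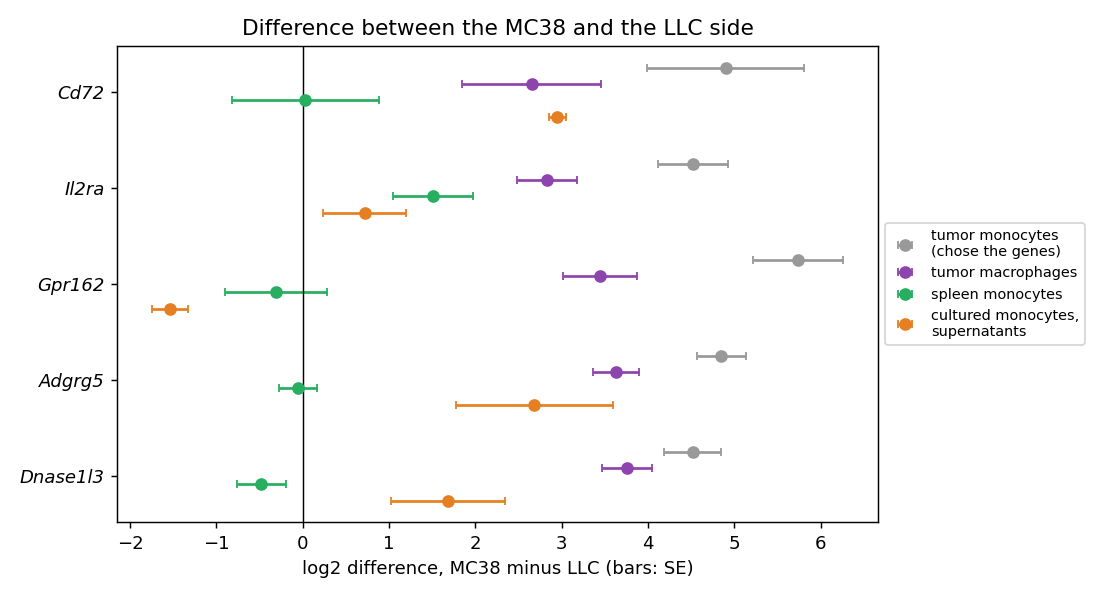
Fitted log2 difference, MC38 minus LLC (x axis), of each gene in tumor monocytes (gray, the contrast that chose the genes), tumor macrophages (purple), spleen monocytes (green) and cultured monocytes given supernatants (orange); bars are SE. Macrophage differences run from 2.65 to 3.76, while in culture Cd72 is at 2.95 and Gpr162 at -1.54.

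In spleen monocytes the share of the 5 genes called was near that of all genes. Of the 5, 1 gene (Il2ra) was higher in MC38 and none lower, where 14.4% of 13200 genes tested were higher and 28.4% differed in either direction. The libraries of the 2 groups overlapped for each of the 5, where 4.20% of genes were separated with MC38 higher. Cd72 had 21.2, 0.624, 1.16 and 11.8 CPM in MC38 and 2.07, 1.31, 26.65 and 1.54 CPM in LLC spleen monocytes. Single libraries set both means: MC38 replicates 1 and 4 and LLC replicate 3 stood well above the others, and Ly6a was also highest in MC38 replicate 1 (56.6 CPM, others 18.1 to 28.7) and LLC replicate 3 (69.9 CPM, others 7.84 to 11.7), but lowest of its group in MC38 replicate 4. The Cd72 difference was 0.03 ± 0.85 on the log2 scale (SE, edgeR adjusted p = 0.985). Without LLC replicate 3 it was 2.36 ± 0.82 (adjusted p = 0.0407) and without MC38 replicate 1 it was -0.99 ± 0.92 (adjusted p = 0.496).

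Il2ra had 1.55, 0.822, 1.54 and 0.590 CPM in MC38 and 0.434, 0.144, 0.856 and 0 CPM in LLC spleen monocytes, near the limit of detection in both. The difference was 1.51 ± 0.46 (log2, SE, edgeR adjusted p = 0.0168), and it was 0.57 ± 0.85 (adjusted p = 0.925) without the libraries carrying foreign transcripts, which leaves 1 MC38 spleen library. Leaving out MC38 replicate 1 or 3 or LLC replicate 2 alone also lost the call, at 1.36, 1.3 and 1.2. Gpr162 was at 0.706 CPM or below in every spleen library, with a difference of -0.31 ± 0.59 (adjusted p = 0.736). Adgrg5 was well expressed and level between the lines, with 14.6, 11.9, 10.99 and 16.2 CPM in MC38 and 13.4, 15.04, 16.7 and 10.2 CPM in LLC, a difference of -0.06 ± 0.22 (log2, SE, adjusted p = 0.874). Dnase1l3 had 4.24, 5.70, 5.85 and 8.66 CPM in MC38 and 5.04, 8.87, 11.9 and 7.61 CPM in LLC, a difference of -0.48 ± 0.28 (adjusted p = 0.211). Without the libraries carrying foreign transcripts the spleen differences were 0.53 ± 1.03 (Cd72), -1.36 ± 1.15 (Gpr162), 0.22 ± 0.34 (Adgrg5) and 0.03 ± 0.45 (Dnase1l3), none past the threshold.

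The line difference in macrophages was tested against that in spleen monocytes. It was larger in macrophages for 3 of the 5 genes, where 21.4% of 13200 genes tested were: by 3.76 ± 0.74 for Gpr162 (log2, SE, edgeR adjusted p = 2.55e-04), 3.69 ± 0.35 for Adgrg5 (adjusted p = 2.78e-08) and 4.24 ± 0.40 for Dnase1l3 (adjusted p = 3.74e-08). For Cd72 (2.62 ± 1.16, adjusted p = 0.0752) and Il2ra (1.32 ± 0.60, adjusted p = 0.0795) the difference between tissues did not pass. Leaving out LLC spleen replicate 3 moved these to 0.29 ± 1.02 and 0.38 ± 0.69, while leaving out LLC spleen replicate 2 (3 and 1.63) or replicate 4 (2.96 and 1.66) made both pass. Without the libraries carrying foreign transcripts Gpr162 (4.83), Adgrg5 (3.42) and Dnase1l3 (3.74) passed, and Cd72 (2.13) and Il2ra (2.25) did not.

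Macrophages were then compared with spleen monocytes of mice with the same tumor, which separated the genes by where the low value lay. In MC38 mice all 5 were higher in macrophages, where 35.6% of 13200 genes tested were higher, 36.3% lower and 71.9% differed. The log2 differences were 7.44 ± 1.03 for Cd72 (adjusted p = 2.73e-06), 5 ± 0.49 for Gpr162, 3.70 ± 0.37 for Il2ra and 3.25 ± 0.28 for Dnase1l3, with no overlap between libraries. Adgrg5 differed by 0.53 ± 0.22 (adjusted p = 0.0380) with overlapping libraries, and this call was lost in 9 of 33 alternatives (adjusted p from 0.0134 to 0.569). Without the libraries carrying foreign transcripts Adgrg5 differed by 0.24 ± 0.34 (adjusted p = 0.569), and the other 4 remained higher, at 6.94 (Cd72), 6.04 (Gpr162), 4.62 (Il2ra) and 2.73 (Dnase1l3).

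In LLC mice, 3 of the 5 were higher in macrophages and 2 lower, where 33.1% and 31.5% of genes tested were and 64.6% differed. Cd72 was higher by 4.82 ± 0.91 (log2, SE, edgeR adjusted p = 1.36e-04) and Il2ra by 2.38 ± 0.44 (adjusted p = 5.65e-05). Gpr162 was higher by 1.24 ± 0.52 (adjusted p = 0.0413) with overlapping libraries, a call lost in 20 of 33 alternatives (adjusted p from 0.0033 to 0.147). Adgrg5 fell by 3.16 ± 0.27 on the log2 scale (adjusted p = 1.04e-09), from a mean of 13.9 CPM in the spleen to 1.59 CPM, without overlap. Dnase1l3 fell by 0.99 ± 0.29 (adjusted p = 0.00502) with overlapping libraries. In MC38 mice the same 2 groups had means of 13.4 CPM (spleen) and 19.3 CPM (macrophages) of Adgrg5.

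**Figure D4:**
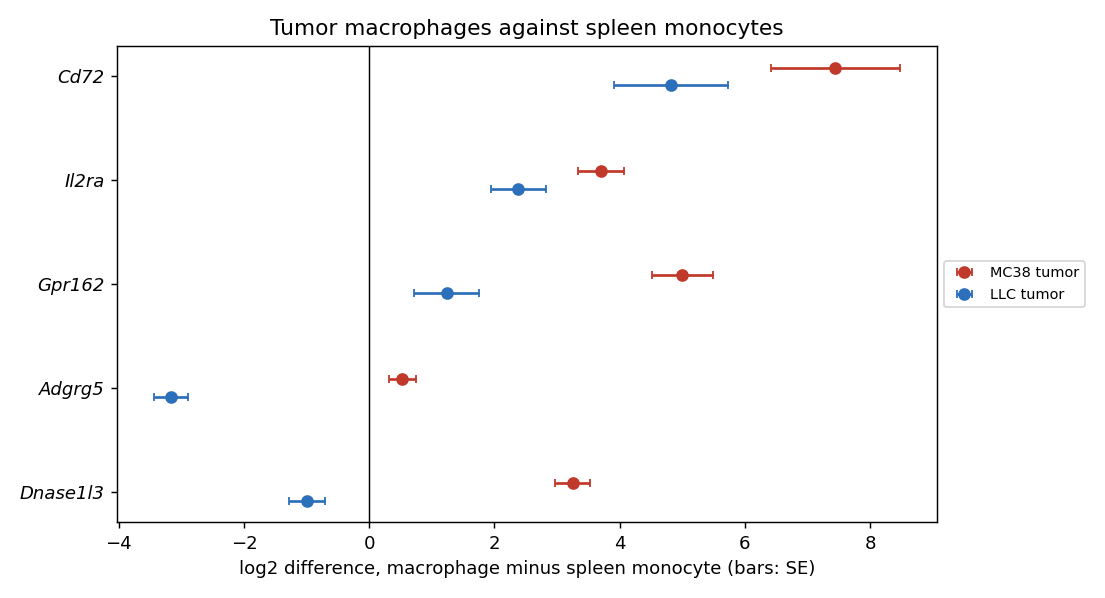
Fitted log2 difference, tumor macrophage minus spleen monocyte (x axis), of each gene in mice with MC38 (red) and LLC tumors (blue); bars are SE. Cd72, Il2ra and Gpr162 lie to the right of 0 for both tumors, whereas Adgrg5 and Dnase1l3 are at -3.16 and -0.99 in LLC and at 0.53 and 3.25 in MC38.

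In culture, the difference between tumor lines was seen for Cd72 and was reversed for Gpr162. Of the 5 genes, 2 were higher with MC38 than with LLC supernatant (Cd72, Adgrg5) and 1 lower (Gpr162), where 21.6% and 18.5% of 12603 genes tested passed the threshold in those directions and 40.1% in either. Libraries of the 2 supernatants did not overlap for 3 genes that were higher (Cd72, Il2ra, Dnase1l3) and 1 that was lower (Gpr162), against 32.5% and 27.7% of genes tested. All 5 entered this fit, but Cd72, Il2ra and Gpr162 passed the filter on low counts only through the supernatant groups, Dnase1l3 only through MC38 supernatant and Adgrg5 only through the untreated cultures. Without the libraries carrying foreign transcripts, Cd72 (3.02), Adgrg5 (3.15), Dnase1l3 (1.65) and Gpr162 (-1.57) passed the threshold. Il2ra, at 0.72 (adjusted p = 0.109), did not. Over the alternatives, 3499 to 7425 of all genes were called in either direction. With RLE or upper quartile scaling or DESeq2, 46.1% to 46.2% of all calls were higher with MC38 supernatant, against 53.9% here.

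Cd72 had 319, 321 and 285 CPM with MC38 supernatant, 41.5, 36.7 and 41.5 CPM with LLC supernatant, and 0.146, 0.282, 0.120 and 0.105 CPM in untreated cultures. Cd72 was close to 0 in untreated cells, higher in both supernatant groups and highest with MC38 supernatant. The supernatant groups also differ from the untreated cells in the subset their labels name, and the 2 cannot be told apart. It was 7.73-fold higher with MC38 than with LLC supernatant (log2 2.95 ± 0.10 SE, edgeR adjusted p = 4.23e-08). Against untreated cells it was higher by 10.93 ± 0.15 with MC38 supernatant (adjusted p = 9.75e-12) and by 7.98 ± 0.15 with LLC supernatant (log2, SE, adjusted p = 6.54e-11). Against untreated cells, 4 of the 5 genes were higher and 0 lower with MC38 supernatant, where 35.4% of genes tested were higher and 67.9% differed. With LLC supernatant 3 were higher and 1 lower, where 32.3% were higher, 36.1% lower and 68.4% differed. Cd72, Il2ra, Gpr162 and Dnase1l3 passed the filter only through supernatant groups, and Adgrg5 only through untreated cultures. The filter thus favored the directions called, so these counts, and the p-values of each gene against untreated cells, are a description only.

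Gpr162 had 2.76, 3.84 and 3.63 CPM with MC38 supernatant and 9.63, 10.4 and 9.72 CPM with LLC supernatant. All 4 untreated cultures had 0 counts, and the LLC supernatant libraries were the highest of the 3 groups. Set against a floor of 3 counts over the untreated group (0.0350 CPM), it was at least 97.4-fold higher with MC38 and at least 284-fold higher with LLC supernatant, from 234 and 715 counts. MC38 supernatant gave 0.343 times the level of LLC supernatant (log2 -1.54 ± 0.21 SE, edgeR adjusted p = 0.00108), the opposite of the order in tumor monocytes and macrophages.

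Il2ra had 1.08, 1.52 and 1.37 CPM with MC38 supernatant, 0.803, 0.936 and 0.647 CPM with LLC supernatant, and 0.265, 0.0868, 0.0837 and 0.304 CPM in untreated cells. It rose with MC38 (log2 2.82 ± 0.49 SE, edgeR adjusted p = 4.52e-04) and with LLC supernatant (2.10 ± 0.49, adjusted p = 0.00315). The libraries of the 2 supernatants did not overlap, but their difference, 0.72 ± 0.48 (log2, SE), did not pass the threshold (adjusted p = 0.262).

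Adgrg5 was close to the limit of detection, with 0.271, 0.542 and 0.0826 CPM with MC38 supernatant, 0, 0.0395 and 0.0852 CPM with LLC supernatant, and 0.584, 1.06, 1.04 and 0.471 CPM untreated. Untreated cells had the most, and the 2 supernatant groups overlapped. Over the groups, 20 counts with MC38 faced 3 counts with LLC supernatant, a ratio of 7 with a 95% exact counting interval of 2.08 to 36.8. The edgeR difference was 2.68 ± 0.91 (adjusted p = 0.0399), a call lost in 9 of 17 alternatives (adjusted p from 0.00466 to 0.181). Leaving out untreated replicate 1 or 3, MC38 supernatant replicate 1 or 2, or any LLC supernatant replicate was enough to lose it. LLC supernatant gave 3 counts against 66 in untreated cells, where the untreated level was 18.5 times higher (interval 6.06 to 92.0; log2 -4.07 ± 0.86 SE, adjusted p = 0.00174), whereas with MC38 supernatant the difference from untreated, -1.39 ± 0.68, did not pass (adjusted p = 0.0960). Intervals and floors cover counting error only, since PCR copies were not marked with molecular identifiers.

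Dnase1l3 had 0.948, 0.632 and 0.870 CPM with MC38 supernatant, 0.388, 0.214 and 0.170 CPM with LLC supernatant, and 0.219, 0.0705, 0.161 and 0.628 CPM untreated. All cultures were below the lowest level in LLC tumor macrophages, 3.12 CPM. The difference between supernatants was 1.68 ± 0.66 (log2, SE, edgeR adjusted p = 0.0675), and it was 1.65 ± 0.55 (adjusted p = 0.0174) without the libraries carrying foreign transcripts. Dnase1l3 passed the filter only through MC38 supernatant, which favored this direction, so these values are a description only. Against untreated cells it was higher by 1.57 ± 0.61 with MC38 supernatant (adjusted p = 0.0406), a call lost in 10 of 18 alternatives, and differed by -0.11 ± 0.65 with LLC supernatant (adjusted p = 0.893). The MC38 call was lost on leaving out any single culture other than untreated replicate 4 (adjusted p over all alternatives from 0.00332 to 0.147).

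The difference between supernatants was tested against the line difference in macrophages in a fit of all 34 libraries. It was smaller in culture for 3 of the 5 genes, where 13.6% of 14582 genes tested were lower and 31.1% differed. The change was -5.01 ± 0.72 for Gpr162 (log2, SE, edgeR adjusted p = 4.03e-06), -2.15 ± 0.63 for Il2ra (adjusted p = 0.00960) and -2.13 ± 0.69 for Dnase1l3 (adjusted p = 0.0182). For Dnase1l3 the call was lost without the libraries carrying foreign transcripts (-2.14 ± 0.92, adjusted p = 0.0726) and without LLC supernatant replicate 1 (-1.7 ± 0.86, adjusted p = 0.153). For Cd72 the culture and macrophage differences were apart by 0.26 ± 0.97 (adjusted p = 0.890) and for Adgrg5 by -1.02 ± 1.39 (adjusted p = 0.635), SEs too wide to show that they are alike.

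Placed on 1 scale over the 9 groups, the genes had different orders. Cd72 ran from MC38 macrophages (mean 1505 CPM on this scale) through TuMon1 (817), MC38 supernatant (282), LLC macrophages (240), LLC supernatant (37.5), TuMon2 (27.5) and MC38 and LLC spleen monocytes (8.87 and 8.17) to untreated cultures (0.152). Among neighbors in that order, only MC38 supernatant with LLC macrophages, TuMon2 with MC38 spleen, and the 2 spleen groups overlapped. Il2ra was highest in TuMon1 and MC38 macrophages (19.5 and 15.3 CPM, overlapping), then LLC macrophages (2.14 CPM), which overlapped neither neighbor in the order, and each group from MC38 supernatant (1.21 CPM) downward overlapped the next.

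For Gpr162, LLC supernatant (9.32 CPM) overlapped MC38 macrophages (9.46 CPM), below TuMon1 (12.8 CPM). Adgrg5 had TuMon1 alone at the top (47.4 CPM), then MC38 macrophages and both spleen groups overlapping at 13.7 to 19.98 CPM, with all other groups at 1.65 CPM or less. Dnase1l3 was highest in MC38 macrophages and TuMon1 (59.8 and 41.0 CPM, overlapping), and then in the 2 spleen groups (8.65 CPM in LLC and 6.23 CPM in MC38).

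Genes of the same pathways were read from fixed lists. Beside their counts, 22.4% of all genes tested were higher and 22.9% lower in MC38 macrophages, and 21.6% and 18.5% with MC38 supernatant. In the list of the interleukin 2 receptor and common gamma chain cytokines (14 genes, 12 tested), 5 were higher and 3 lower in MC38 macrophages. Il15 (log2 1.38 ± 0.12), which signals through the beta and gamma chains, its receptor chain Il15ra (1.21 ± 0.13) and Il2rg (0.89 ± 0.09) were higher, and the signal transducer Stat5a was lower (-0.51 ± 0.06). In culture, 5 of 11 tested were higher and 1 lower with MC38 supernatant, among them the receptors Il4ra (1.52 ± 0.10), Il21r (0.98 ± 0.15) and Il7r (0.51 ± 0.15), with Stat5b lower (-0.33 ± 0.07). The Il7r call was lost in 6 of 19 alternatives.

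In the list around CD72 (18 genes, its ligand, inhibitory receptors and the signaling proteins of the B cell receptor), 8 were higher and 3 lower in MC38 macrophages. The inhibitory lectins Cd22 (2.58 ± 0.21) and Siglece (2.07 ± 0.12), the phosphatase gene Ptpn6 (0.63 ± 0.07) and the exchange factor Vav1 (0.67 ± 0.08) were among the higher. In culture, 4 of 16 tested were higher and 6 lower: Vav1 (0.90 ± 0.09), the ligand Sema4d (0.57 ± 0.08) and Ptpn6 (0.49 ± 0.08) were higher, and the inhibitory Fc receptor Fcgr2b was lower (-0.81 ± 0.09). Cd22 (-0.51 ± 0.14) and Siglece (-0.47 ± 0.15), higher in MC38 macrophages, were also among the lower in culture, calls lost in 4 and 11 of 19 alternatives.

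In the list of DNases and nucleic acid sensing (15 genes, 13 tested), 9 were higher and 1 lower in MC38 macrophages, with a median of 0.53. The DNA receptor Tlr9 (2.24 ± 0.14), the cytosolic DNase Trex1 (1.44 ± 0.13), the DNA sensor Cgas (1.05 ± 0.11) and its adaptor Sting1 (0.74 ± 0.10) were higher. With MC38 supernatant 6 were higher and 2 lower, with Tlr9 (2.36 ± 0.11), Trex1 (2.06 ± 0.09), Sting1 (1.11 ± 0.08) and the nucleotide hydrolase Samhd1 (1.11 ± 0.10) among the higher and a list median of 0.06.

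Adhesion receptors other than Adgrg5 did not move as a family. Of 23 genes, 16 were tested in macrophages, with 3 higher and 5 lower. The macrophage marker Adgre1 (F4/80) was higher (1.07 ± 0.11), while Adgre5 (CD97, -2.49 ± 0.12), Adgre4 (-2.06 ± 0.18) and Adgrg6 (-1.19 ± 0.15) were lower. Culture gave 2 higher and 4 lower of 14 tested, with Adgre5 (-0.34 ± 0.08) and the atypical cadherin Celsr3 (-1.07 ± 0.09) lower. The 2 higher were Adgre4, near the limit of detection (0.164 against 0.0132 CPM), and Adgrl1, with a wide spread (9.84 ± 16.5 against 0.155 ± 0.0925 CPM, SD). Both were named after their values were seen. In spleen monocytes the 4 lists gave 0 higher and 5 lower, 1 and 12, 0 and 7, and 5 and 2, in the order above. Beside these counts, 14.4% of 13200 genes tested in spleen monocytes were higher in MC38 and 28.4% differed in either direction. Spleen calls depended on scaling: over all genes, lower calls fell from 1852 to 1270 with RLE and to 1083 with upper quartile scaling. Whether the spleen list counts hold under other scalings or without the libraries carrying foreign transcripts was not tested.

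Genes next to the 5 on the chromosome were read from RefSeq, 5 on each side. Of 50 neighbors, 23 were tested in macrophages (12 higher, 4 lower) and 22 in culture (5 higher, 10 lower), beside the same shares of all genes, 22.4% and 22.9% in macrophages and 21.6% and 18.5% in culture. Gpr162 was higher on the MC38 side in macrophages and on the LLC side in culture, and its neighbors Cd4, Cdca3 and Ptms had the same pair of calls. So did Arhgef39 (1.92 ± 0.26 and -1.2 ± 0.17) and Car9 (0.66 ± 0.14 and -0.92 ± 0.14) beside Cd72, which did not reverse. The share of all genes with this pair of calls was not computed. Cd4, the T helper coreceptor, lies 498 bases from Gpr162 on the same strand. Cd4 was at 3.62 to 6.28 CPM in MC38 and 0.322 to 0.596 CPM in LLC macrophages (log2 3.35 ± 0.50 SE, edgeR adjusted p = 4.84e-06). In culture it was at 0.372 to 0.767 CPM with MC38 and 3.75 to 4.33 CPM with LLC supernatant (-2.95 ± 0.42, adjusted p = 3.37e-04), and untreated cultures had 0.0523 CPM at most. Cdca3, a cell cycle gene 24743 bases away, was at 1.66 ± 0.21 in macrophages (adjusted p = 6.57e-07) and -0.97 ± 0.08 in culture (adjusted p = 1.43e-05). Ptms, 49480 bases away, was at 0.48 ± 0.14 in macrophages (adjusted p = 0.00771) and -0.52 ± 0.09 in culture (adjusted p = 0.00123). Lag3, another T cell gene 40164 bases away, was at 4.67 to 6.39 CPM against 0.536 to 1.05 CPM in macrophages (2.80 ± 0.51, adjusted p = 7.16e-05), and in culture it was at 0.283 CPM or less and was not tested.

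Ccdc102a, 3713 bases from Adgrg5 on the opposite strand, was higher in MC38 macrophages (15.7 ± 1.21 against 3.40 ± 1.27 CPM, SD, n = 4; log2 2.24 ± 0.16 SE, adjusted p = 1.64e-11). Like Adgrg5 it was high in spleen monocytes (32.8 CPM in LLC, 37.2 CPM in MC38) and fell short of that in LLC macrophages. It also fell short of that in MC38 macrophages, unlike Adgrg5 (19.3 CPM in MC38 macrophages, 13.4 CPM in MC38 spleen). In culture its difference of 2.85 (adjusted p = 0.0179) rested in size on MC38 supernatant replicate 3, at 4.75 CPM against 0.587 and 0.768 CPM in the others, and was 1.27 ± 0.37 without it. Il15ra, 11978 bases from Il2ra, was higher in both settings (1.21 ± 0.13 and 1.11 ± 0.14). Tesk1, which overlaps the end of Cd72 on the opposite strand, differed by -0.21 ± 0.06 in macrophages and 0.48 ± 0.07 in culture. The kit keeps strand, but whether the counting used it is not given in the sources used here, so reads in that overlap cannot be told apart.

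**Figure D5:**
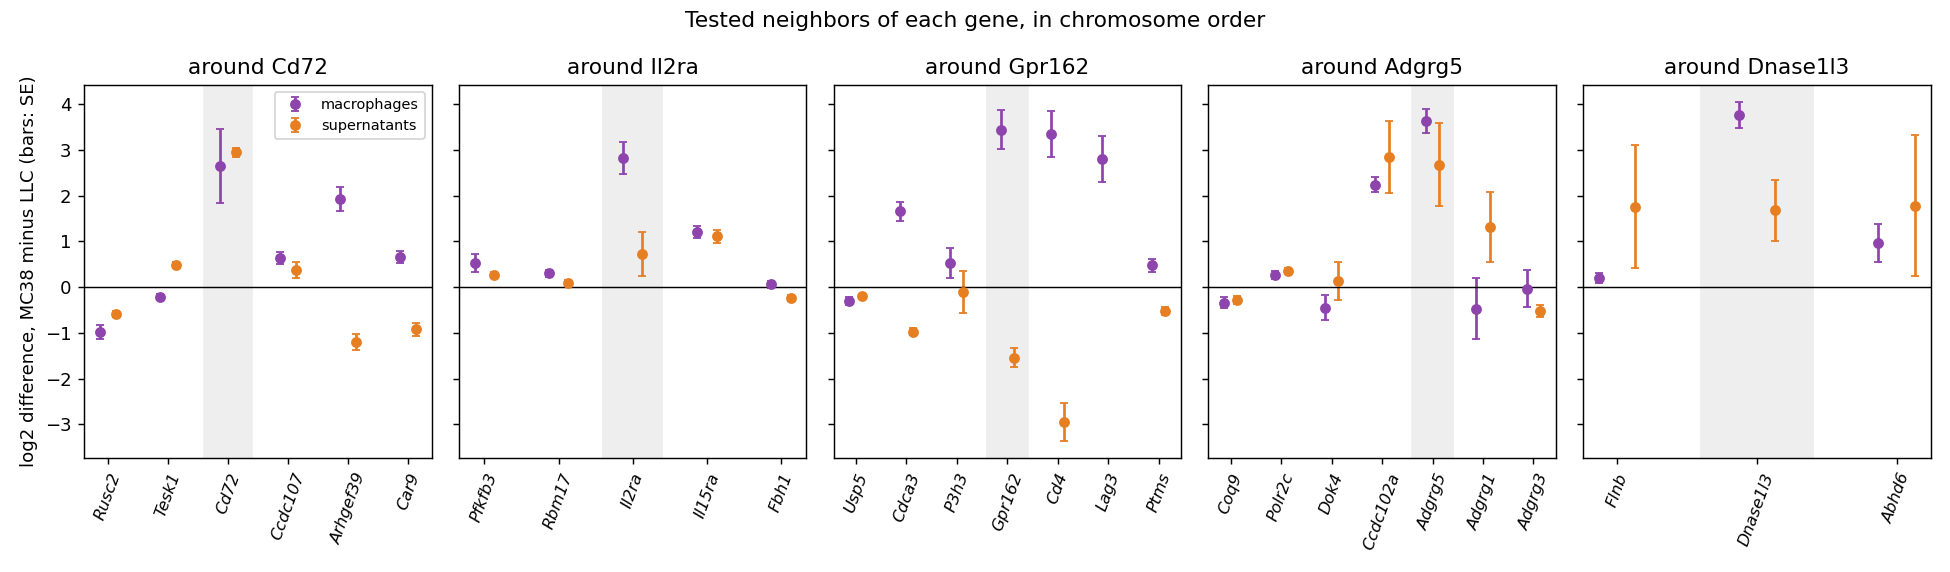
Fitted log2 difference, MC38 minus LLC (y axis), of each gene (shaded) and its tested neighbors in chromosome order (x axes), in macrophages (purple) and with supernatants (orange); bars are SE. Gpr162 and Cd4 lie together above 0 in macrophages (3.44 and 3.35) and below 0 in culture (-1.54 and -2.95).

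The genes whose levels were most like each of the 5 were found by Pearson's r of log2 CPM over the 34 libraries, among 9808 genes. Cd72 was most like Gdf3 (r = 0.966), Ms4a7 (0.963), Tlr3 (0.959), Zmynd15 (0.959) and Ccl12 (0.958). Il2ra was most like Rmdn3 (0.944) and Lap3 (0.907), and Gpr162 most like Il12rb1 (0.922) and Mylip (0.913). Adgrg5 was most like Calhm6 (0.970) and Rab43 (0.954), and Dnase1l3 most like Cd300e (0.940), AW112010 (0.933) and Stap1 (0.931). These values are descriptions over libraries that share groups and include the contrast that chose the genes.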

How the data were processed

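The deposited table holds the authors' estimated counts per gene (expected counts, by Entrez Gene ID) for all 34 libraries, and 14.62% of its values are not whole. The submitters' processing notes name CASAVA 1.8.2 and GRCm38 (mm10). Aligner and counter: not given in the sources used here. Libraries came from a strand-specific kit, per the labels' protocols. Rounding to whole counts, which the design had assumed, changed no total by more than 0.000368%. Of 24475 identifiers, 24375 had a symbol (RefSeq, GRCm38.p6).

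One model was fitted to the 24 mouse libraries (13200 genes) and one to the 10 cultures (12603 genes) with edgeR 4.0.16 in R 4.3.3. Genes were kept by filterByExpr and scaled by TMM, and the 2-sided quasi-likelihood F-test was adjusted by Benjamini-Hochberg over all genes of the fit, at 0.05. Another model, of all 34 libraries (14582 genes) gave the test of culture against macrophages. SEs were taken as the absolute log2 difference divided by the root of its F value. Log2 CPM have a prior count of 2. The fits were tested on simulated data. Contrasts with tumor monocytes chose the genes and have no test.

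Named list genes were at most 4 per list and comparison, with the smallest adjusted p among called genes of at least 10 CPM in the higher group. Neighbors were the 5 nearest genes per side, and like patterns the 5 highest r, of which some are named. The 5 genes, the lists and the doubted libraries were chosen with earlier results of these data known. Replicate numbers were not used to pair the samples in the main fits. Same-numbered libraries had correlations of deviations from -0.13 to 0.12 between the macrophage groups and from -0.08 to 0.03 between the supernatant groups. They were 0.37, -0.46 and -0.43 between MC38 supernatant and untreated cultures, and -0.31 to 0.05 between MC38 macrophages and spleen monocytes. These values cannot show whether samples were paired. Alternatives were other scalings, filters, DESeq2 1.42.0 (adjusted p given as NA left out), a replicate block, other sample sets and leaving out each library. Chi-square tests of counts found no replicate pair within sampling noise of each other.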

Additional observations from a re-analysis of the deposited data

Results flagged for a closer look

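Among 34 tests for a library standing apart within a group of 4, 4 were positive, where chance gives about 1 in 20. In LLC spleen monocytes, replicate 3 had 26.65 CPM of Cd72 against 1.31 to 2.07 CPM in the other libraries. In MC38 spleen monocytes, replicate 1 had 0.706 CPM of Gpr162 against 0.132 to 0.195 CPM. In TuMon1, replicate 2 had 35.7 CPM of Adgrg5, the lowest, against 47.7 to 50.2 CPM. In LLC macrophages, replicate 4 had 2.78 CPM of Adgrg5 against 1.09 to 1.38 CPM.

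The MC38 minus LLC difference was larger in macrophages than in spleen monocytes, by an interaction test, for Gpr162 (3.76 on the log2 scale), Adgrg5 (3.69) and Dnase1l3 (4.24). It was smaller between supernatants in culture than between macrophages for Il2ra (-2.15), Gpr162 (-5.01) and Dnase1l3 (-2.13), and for Gpr162 alone it passed the threshold in opposite directions in the 2 settings.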

How the results depend on the processing

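The macrophage calls of the 5 genes held in every alternative that gave the gene an adjusted p (32 alternatives for Cd72, 33 for each of the others). The number of the 5 genes called higher ran from 4 to 5. Spleen results moved most: all genes called fell from 3755 to 22 without the 5 libraries carrying foreign transcripts and to 1013 with only the compared groups fitted, which left 0 of the 5 higher in both, and the share of calls that were higher, 50.7%, was 62.1% with RLE scaling, 66.8% with upper quartile scaling and 60.3% with DESeq2. In spleen, Adgrg5 turned to 0.02 (upper quartile), 0.22 (without the 5 libraries) and 0.03 (compared groups only), Dnase1l3 to 0.03 (without the 5 libraries) and Cd72 to -0.01 (all 34 libraries in one fit). Leaving out single libraries gave, in spleen, -0.99 to 2.36 for Cd72, -1.08 to 0.20 for Gpr162, -0.19 to 0.04 for Adgrg5, 0 to 2 of the 5 genes higher and 2525 to 6639 genes called (the most without MC38 replicate 4). Without the 5 libraries, the genes whose line difference differed between macrophages and spleen fell from 5767 to 3464, and leaving out LLC spleen replicate 2 or 4 raised the members among them from 3 to 5. Between supernatants, 1 gene in place of 2 was higher with no filter or a stricter one, and 1 to 3 with single libraries left out. The number of all genes called between supernatants ran from 3499 to 7425 over the alternatives. Against untreated cells, the stricter filter left 2 higher (MC38 supernatant) and 0 lower (LLC supernatant), and all 34 libraries in one fit gave 1 lower (MC38 supernatant). The replicate block turned Dnase1l3 with LLC supernatant against untreated cells to 0.70, and leaving out single libraries gave -0.54 to 0.66. With that block Adgrg5 between supernatants missed the threshold (adjusted p = 0.0808) and Dnase1l3 passed (adjusted p = 0.0328). The stricter filter removes low genes by construction; for the other shifts the cause was not tested. Genes under about 1 CPM, such as Il2ra, Adgrg5 and Dnase1l3 in culture, are limited by their counts.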

Other observations

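Across the 16 mouse libraries other than tumor monocytes, Cd72, Il2ra and Gpr162 varied together (Pearson's r of 0.856, 0.870 and 0.826 for the 3 pairs), whereas Cd72 and Adgrg5 did not (r = -0.170). Over the 10 culture libraries Cd72 followed Il2ra (r = 0.932) and Gpr162 (r = 0.891), and Gpr162 and Adgrg5 ran in opposite directions (r = -0.853). These are descriptions over libraries that share groups, with no test.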
